A study of Mus musculus with 32 samples.

Results

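Irradiated mouse tumours were divided by how strongly they expressed 6 interferon-stimulated genes, and the tumours above the middle of that scale were compared with those below it. The 16 tumours are the irradiated libraries of a bulk RNA sequencing series of 32. They were selected on a score, the mean log2(CPM + 1) of Ifit1, Ifit3, Isg15, Rsad2, Oas2 and Usp18, where CPM is the estimated count scaled to the column total of the library. Within carbon_treated and within photon_treated the 4 libraries with the highest score of 8 formed the high set and the other 4 the low set, which gave 8 high and 8 low libraries. The score and its 6 genes are therefore a description of the split and were given no test.

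All 32 libraries came from tumours of KPC36, a mouse line whose name follows that of a family of genetically engineered pancreatic cancer models. The labels call the cell type malignant and the tissue a KPC36 tumor, and give no genotype, host strain, age, dose or site of growth. The groups of 8 libraries were carbon_treated (carbon-ion irradiated), carbon_ctrl (its untreated controls), photon_treated (photon irradiated) and photon_ctrl (its untreated controls). Per the design text, tumours were collected 4 or 7 days post-irradiation. Labels used here do not give the day per library. Whether the sets differ in day was not tested. The labels do not say that each library is a separate animal, so p-values measure the spread between libraries. Replicate numbers below follow the order of deposition and only name a library.

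Library totals ran from 22777950 to 48229979 estimated counts in the high set and from 13891863 to 71645903 in the low set. The 3 irradiated libraries with a title starting with D, a letter whose meaning is not stated, were carbon_treated 1 in the high set and carbon_treated 2 and 3 in the low set. In photon_treated the number in the title rises with the replicate number, and the sets partly follow it. Photon_treated 1, 2 and 3, with the lowest title numbers, were in the low set together with photon_treated 6. Photon_treated 7 and 8, with the highest, were in the high set together with photon_treated 4 and 5. What the title number stands for is not stated, and its part in the difference between the sets was not tested. Markers of epithelial tumour cells were abundant in every irradiated library: the list, 12 of whose 13 genes were tested, summed to between 3158 and 5359 CPM in the high set and between 2497 and 6014 CPM in the low set, on library totals scaled by TMM. Of 8 markers of pancreatic acinar cells only Cela1 had enough counts to be tested.

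Interferons are secreted proteins that warn cells of viruses, of misplaced nucleic acid or of damaged cells. Type I interferons bind the receptor made of Ifnar1 and Ifnar2, and the kinases Jak1 and Tyk2 then phosphorylate transcription factors, among them Stat2, which joins Irf9 on a DNA element called the interferon-stimulated response element (ISRE). The products include antiviral effectors such as the Ifit and Oas proteins, sensors of foreign nucleic acid, and feedback regulators such as Usp18. Interferon-gamma acts through another element, the gamma-activated site (GAS), and induces guanylate-binding proteins and immunity-related GTPases. In tumours, radiation is known to induce type I interferon in part through cytosolic DNA, the enzyme Cgas and the adaptor Sting1.

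The promoters of the score genes share a sequence element. RefSeq promoter windows, which run from 250 bases before to 50 bases after a gene's start, were searched on both strands for the ISRE core (GAAA, then 2 bases of any kind, then GAAA) and for the GAS (TTCNNNGAA). All 4 of the score genes with an entry in the RefSeq table held the ISRE core, against 3.99% of all 27025 genes of the table. The 50-base stretches below, on GRCm38.p6 (mm10), are shown because they carry that element in the genes that made the score. They read 5′ to 3′ in the direction of the gene, with each match to the core on either strand in capitals.
Ifit1: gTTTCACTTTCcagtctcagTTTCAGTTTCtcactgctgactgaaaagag
Ifit3: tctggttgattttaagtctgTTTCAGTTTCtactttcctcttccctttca
Isg15: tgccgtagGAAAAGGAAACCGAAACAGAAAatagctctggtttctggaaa
Rsad2: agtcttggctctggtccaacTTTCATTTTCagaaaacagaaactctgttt
Ifit1 (chr19:34640784-34640833, plus strand) had 2 matches in this stretch, and the one nearest the start site ended 75 bases before it. In Ifit3 (chr19:34583387-34583436, plus strand) that distance was 112 bases. Isg15 (chr4:156200855-156200904, minus strand) had 3 overlapping matches ending 56 bases before the start, and Rsad2 (chr12:26456543-26456592, minus strand) had 1 match at 110 bases.

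Genes that were not in the score but were higher in the high set were searched for the same elements. Of the 23 such genes described below, 16 had a promoter entry and 10 of those held the ISRE core (62.5%), against 3.69% of the tested genes with an entry. The GAS was found in 3 of the 16 (18.8%), against 8.53% of the tested genes with an entry. The 3 were Tgtp2, Igtp and Irgm2, whose stretches below resemble one another. Those of Igtp and Irgm2 were identical in 48 of 50 bases, and that of Tgtp2 matched them in 36 and 37. The 3 matches are therefore not independent of one another. A match is a description of letters and not a site shown to be used. The genes with an entry and no ISRE core in it were Xaf1, Oasl2, Cmpk2, Herc6, Helz2 and 1700025N23Rik. The next stretches come from genes that passed the test between the sets and held the core. A transcription factor, a chemokine and 3 GTPases are among them.
Ifi203: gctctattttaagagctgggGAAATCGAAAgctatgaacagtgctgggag
Stat2: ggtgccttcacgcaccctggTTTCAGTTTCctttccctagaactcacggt
Ifit3b: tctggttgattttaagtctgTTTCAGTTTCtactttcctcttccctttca
Cxcl10: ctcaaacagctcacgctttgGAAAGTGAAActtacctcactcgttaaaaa
Tgtp2: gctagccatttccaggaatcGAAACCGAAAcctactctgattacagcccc
Igtp: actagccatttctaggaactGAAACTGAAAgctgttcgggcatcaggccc
Irgm2: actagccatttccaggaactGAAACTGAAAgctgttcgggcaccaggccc
Their positions were chr1:173942498-173942547 on the minus strand for Ifi203, chr10:128270256-128270305 on the plus strand for Stat2 and chr19:34607783-34607832 on the plus strand for Ifit3b. Cxcl10 lay at chr5:92349073-92349122 on the minus strand, Tgtp2 at chr11:49064253-49064302 on the minus strand, Igtp at chr11:58199502-58199551 and Irgm2 at chr11:58214893-58214942, both on the plus strand. The stretches of Ifit3 and Ifit3b were identical in all 50 bases, and those of the neighbouring genes Igtp and Irgm2 in 48 of 50. Such copies can share reads, so the values of Ifit3 and Ifit3b, of Tgtp2 and Tgtp1, of the guanylate-binding proteins and of Igtp and Irgm2, whose annotated spans overlap on the same strand, carry that uncertainty. How strand was handled in the counting is not given in the sources used here.

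The scores of the high set were 3.88, 3.499, 3.55 and 4.69 in carbon_treated 1, 4, 6 and 8, and 3.98, 2.75, 2.82 and 3.21 in photon_treated 4, 5, 7 and 8. Those of the low set were 1.95, 2.77, 2.38 and 1.46 in carbon_treated 2, 3, 5 and 7, and 1.34, 2.70, 1.90 and 1.28 in photon_treated 1, 2, 3 and 6. At the boundary, carbon_treated 4 at 3.499 faced carbon_treated 3 at 2.77, whereas photon_treated 5 at 2.75 lay next to photon_treated 2 at 2.70. The photon boundary thus separates libraries of nearly equal score. Untreated tumours, which the rule did not use, scored from 1.197 to 2.97 with a median of 1.70, so 6 of the 8 high libraries lay above every untreated library.

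**Figure D1:**
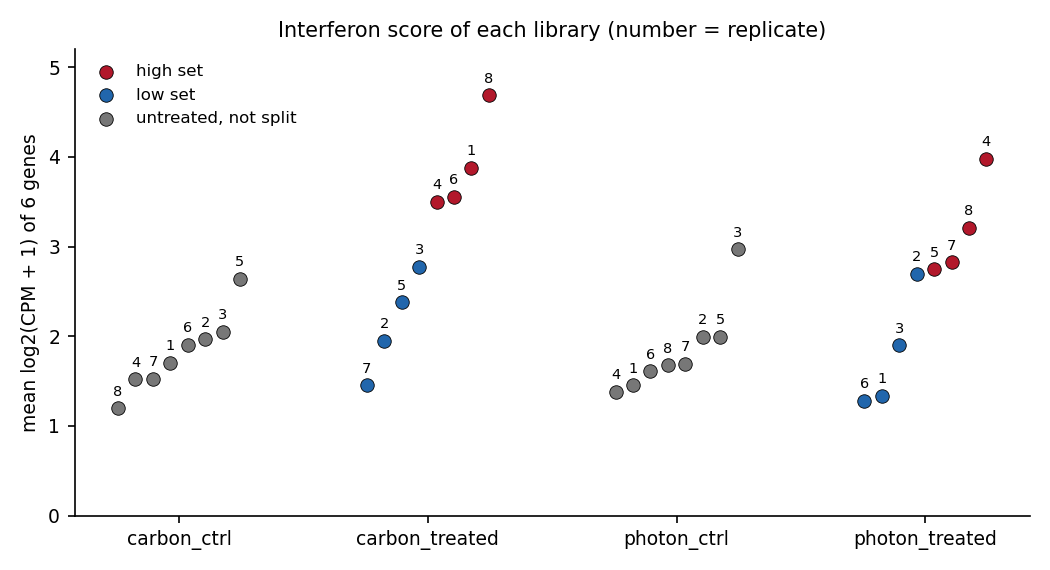
Interferon score, the mean log2(CPM + 1) of 6 genes, of each of the 32 libraries by group; red points are the high set, blue the low set and grey the untreated libraries, and the number is the replicate. The carbon_treated sets are apart (3.499 against 2.77), the photon_treated sets nearly touch (2.75 against 2.70), and the untreated scores end at 2.97.

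From here on, as in the epithelial sums above, CPM refers to library totals scaled by TMM, and 4 values in a row follow the replicate order just given. Ifit1, an antiviral RNA-binding protein, was at 19.2, 21.6, 15.2 and 34.5 CPM in the carbon_treated high set and at 4.87, 5.90, 6.55 and 2.13 CPM in the low set. In photon_treated it was at 26.4, 7.59, 11.3 and 11.9 CPM in the high set and at 2.06, 8.60, 3.01 and 1.92 CPM in the low set. The photon sets overlapped, with photon_treated 2 of the low set above photon_treated 5 of the high set. Usp18, the protease that removes Isg15 from proteins and damps the receptor, did not overlap in either beam: it was at 13.996, 15.1, 11.8 and 17.8 CPM against 4.58, 5.07, 4.97 and 2.87 CPM in carbon_treated, and at 16.04, 8.29, 7.25 and 9.49 CPM against 1.53, 5.25, 2.38 and 3.17 CPM in photon_treated. Oas2 overlapped in both beams, with carbon_treated 3 of the low set at 8.997 CPM and carbon_treated 4 of the high set at 4.17 CPM.

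Outside the 6 score genes, 25 of 20468 genes tested differed between the sets (0.122%) by edgeR's quasi-likelihood test with the irradiated group as a block and a Benjamini-Hochberg adjusted p under 0.05. Of these, 23 were higher in the high set (0.112% of the genes tested) and 2 were lower. The median log2 change over all genes tested was -0.00, and 49.2% of them had a positive change. The unadjusted p was under 0.05 in 1678 genes (8.20%). Of the 25 genes, 18 belonged to lists of pathway genes assembled for the comparison, all 18 of them higher, in lists of interferon genes and chemokines and, for Dhx58, of nucleic acid sensing. Genes of the interferon response are known to move together, so their calls describe what the split separated rather than an independent result. The count varied with single libraries: it was between 4 and 32 when each of the 16 was left out in turn, 3 without the top-scoring library of each beam, 0 by edgeR in the 13 libraries with M titles, where 1135 had an unadjusted p under 0.05, and 154 with DESeq2 on all 16. Xaf1, Ifi203, Tgtp2 and Stat2 passed in all 16 fits with a library left out. Helz2, Trim34a, Gvin1, Irgm2 and 1700025N23Rik passed in 3 of the 16, Mx2 and Golim4 in 2, and the others in 4 to 12.

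The 25 genes were chosen by the contrast over both beams, which favours genes set apart in each, so the next counts describe them only. Of the 23 that were higher, 22 had carbon_treated sets that did not overlap and 17 had photon_treated sets that did not overlap. The same held for 834 of all genes tested in carbon_treated (4.07%) and for 271 in photon_treated (1.32%). All 8 high libraries exceeded all 8 low libraries for 6 of the 23, against 8 of all genes tested (0.0391%).

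Antiviral effectors were the largest group among the 25 genes. Of 42 tested genes in the list of interferon-stimulated effectors, 8 passed, all higher, and 40 had a positive change. Their median log2 change was 0.95, against -0.00 over all genes. The list summed to between 2159 and 2845 CPM in the high set and between 1319 and 2602 CPM in the low set. Within carbon_treated the sums overlapped, at 2216 to 2845 CPM against 2251 to 2602 CPM. Within photon_treated they did not, at 2159 to 2716 CPM against 1319 to 2142 CPM. DESeq2 called 27 of the 42 and edgeR 0 in the M-titled libraries. With a library left out, 1 passed without carbon_treated 2, 7 or 8 or photon_treated 1, 2 without carbon_treated 1 or photon_treated 4, 6 or 8, 5 without carbon_treated 4 or 5 or photon_treated 3, and 13 without photon_treated 2, while the median stayed between 0.87 and 1.07.

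Xaf1, a pro-apoptotic protein that opposes the inhibitor of apoptosis Xiap, had the smallest p of all genes tested. It was at 18.6, 20.8, 18.7 and 23.9 CPM in the carbon_treated high set against 8.89, 12.3, 13.0 and 9.40 CPM in the low set. In photon_treated it was at 23.1, 12.8, 16.8 and 17.3 CPM against 7.29, 8.81, 7.58 and 7.02 CPM. The sets did not overlap in either beam. The log2 change was 1.03 ± 0.13 (SE, 8 against 8 libraries; edgeR adjusted p = 0.00642). Untreated tumours ran from 5.10 to 13.3 CPM, so the high set stood above the untreated range in all but photon_treated 5 while the low set lay within it.

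Oasl2, a 2′-5′ oligoadenylate synthetase-like protein, was at 46.3, 31.2, 37.5 and 67.2 CPM against 14.1, 25.3, 23.4 and 13.95 CPM in carbon_treated. Its photon_treated values were 53.03, 23.4, 31.5 and 39.9 CPM against 10.1, 23.1, 16.2 and 11.2 CPM. Its log2 change was 1.25 ± 0.22 (edgeR adjusted p = 0.0304). The closest pair within a beam was photon_treated 5 and 2, the same pair that nearly touched in the score.

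Herc6, the mouse ligase that attaches Isg15 to proteins, changed by 1.13 ± 0.20 on the log2 scale (edgeR adjusted p = 0.0304), from 3.36, 7.401, 5.09 and 3.64 CPM in the carbon_treated low set to 12.7, 10.5, 8.95 and 15.2 CPM in the high set. In photon_treated the values were 3.88, 5.21, 3.38 and 3.12 CPM in the low set and 10.2, 6.69, 5.49 and 9.19 CPM in the high set. Neither pair of sets overlapped. Mx2, of the family of antiviral dynamin-like GTPases and annotated as a polymorphic pseudogene in the mouse reference, was scarcer, at 3.10 to 7.82 CPM in the high set and 0.520 to 2.38 CPM in the low set. Its log2 change was 1.54 ± 0.29 (edgeR adjusted p = 0.0485), and it passed in only 2 of the 16 fits with a library left out.

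The remaining called effectors were Ifit3b, Cmpk2, Parp14 and Helz2. Cmpk2, a mitochondrial nucleotide kinase encoded next to Rsad2 on chromosome 12, ran from 2.20 to 11.8 CPM in the high set and from 0.468 to 2.04 CPM in the low set, with a log2 change of 1.94 ± 0.32. Ifit3b had the largest log2 change of the list, 2.25 ± 0.35, at 2.68 to 10.1 CPM against 0.364 to 2.41 CPM, and is the near-copy of a score gene shown above. Neither gene overlapped between the 8 high and the 8 low libraries. Parp14, an ADP-ribosyltransferase, changed by 0.84 ± 0.15 and Helz2, a helicase, by 0.64 ± 0.11. With a library left out they passed in 5 and 3 of 16 fits. Several effectors did not pass: Bst2, the surface protein that tethers budding virus, had a log2 change of 1.15 ± 0.22 (edgeR adjusted p = 0.0574), and Rtp4, a chaperone of receptors with antiviral action, 1.25 ± 0.25 (edgeR adjusted p = 0.0660).

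Among 25 tested genes of nucleic acid sensing, 1 passed and 20 had a positive change, with a median log2 change of 0.29. That 1 call was lost without any one of carbon_treated 1, 2, 5, 6, 7 and 8 or photon_treated 1, 3, 4, 6 and 8, and there were 2 without carbon_treated 3 or photon_treated 5 and 6 with DESeq2. Without carbon_treated 8 the median was 0.185. The called gene was Dhx58, which encodes LGP2, a regulator of the RNA sensors RIG-I and MDA5. It was at 8.27, 4.58, 6.96 and 12.7 CPM in the carbon_treated high set and at 2.20, 4.83, 2.84 and 2.79 CPM in the low set, so that carbon_treated 4 and 3 overlapped. Photon_treated gave 10.2, 4.82, 5.49 and 7.75 CPM against 2.71, 3.69, 2.82 and 1.51 CPM, without overlap. The log2 change was 1.36 ± 0.24 (edgeR adjusted p = 0.0333).

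The receptors upstream did not pass. Rigi (RIG-I, listed as Ddx58 in older annotation) had a log2 change of 0.58 ± 0.15 (edgeR adjusted p = 0.251) and Ifih1 (MDA5) of 0.55 ± 0.16 (edgeR adjusted p = 0.316), with carbon_treated sets that overlapped and photon_treated sets that did not for both. Rigi passed in 4 of 27 alternatives, among them without carbon_treated 3 (edgeR adjusted p = 0.0413), and Ifih1 in 1, with the score as a number. For the DNA sensor Cgas the change was 0.40 ± 0.22 (edgeR adjusted p = 0.643). Sting1, the adaptor of Cgas, stood at 24.8, 29.5, 31.5 and 41.0 CPM in the carbon_treated high set and at 29.6, 37.7, 35.7 and 32.9 CPM in the low set, and its change over both beams was 0.07 ± 0.11 (edgeR adjusted p = 0.836). Trex1, the nuclease that removes cytosolic DNA, had a change of 0.29 ± 0.20 (edgeR adjusted p = 0.689). The 20-gene list that holds interferon ligands, their receptors and kinases had 10 tested members, of which 0 passed and 4 were positive, with a median log2 change of -0.06. Within carbon_treated 2 were positive (median -0.08) and within photon_treated 8 (median 0.07). By edgeR the beam difference had an unadjusted p under 0.05 for 3 and passed for 0. The median over both beams changed sign between settings, up to 0.030.

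Transcripts of the interferons themselves were at the limit of detection. Ifnb1 was listed at 0 in 29 of the 32 libraries and did not exceed 1.80 estimated counts in any. Ifng was listed at 0 in 26 libraries, with a maximum of 8.33 estimated counts in photon_treated 1 of the low set (0.175 CPM). Neither could be tested, and a difference in ligand was not detectable at this depth. Ifnar1, at 128 to 166 CPM in the high set and 114 to 161 CPM in the low set, changed by -0.03 ± 0.07 (edgeR adjusted p = 0.902) and Ifnar2 by -0.11 ± 0.10 (edgeR adjusted p = 0.745).

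In the list of interferon transcription factors and feedback 2 of 16 tested genes passed, both higher, and 13 of the 16 were positive (median log2 change 0.22). With a library left out 1 to 3 passed, and it was 1 without carbon_treated 1, 2, 7 or 8 or photon_treated 1, 6 or 8. Stat2, the partner specific to type I and III interferon signalling, was at 66.97, 58.1, 52.2 and 71.9 CPM against 38.2, 38.7, 28.1 and 27.7 CPM in carbon_treated. For photon_treated these were 55.03, 46.05, 49.4 and 55.6 CPM against 30.4, 40.8, 33.96 and 31.2 CPM. All 8 high libraries were above all 8 low ones, with a log2 change of 0.74 ± 0.11 (edgeR adjusted p = 0.0133). The untreated range of 27.7 to 44.2 CPM held the low set and none of the high set.

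Irf9, the DNA-binding member of the complex that Stat2 joins, had a change of only 0.26 ± 0.10 (edgeR adjusted p = 0.542). Irf7, which amplifies interferon production, had a large change that did not pass, 1.75 ± 0.37 (edgeR adjusted p = 0.0890): it ran from 14.4 to 84.7 CPM in the high set and from 5.98 to 19.8 CPM in the low set, where photon_treated 2 was the highest. It passed in 5 of 27 alternatives, among them without photon_treated 2 (edgeR adjusted p = 0.0248) and with the score as a number. Irf1, a primary target of interferon-gamma, was at 43.9 to 58.1 CPM in the high set and 40.3 to 56.1 CPM in the low set, a change of 0.06 ± 0.07 (edgeR adjusted p = 0.811).

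GTPases that restrict intracellular pathogens formed the second group. In the list of interferon-gamma-type GTPases and enzymes, 6 of 18 tested genes passed, all higher, and 17 were positive, with a median log2 change of 0.73. The count was 1 without any one of carbon_treated 1, 2, 4, 7 and 8 or photon_treated 1, 3, 4, 6 and 8, and 2 with the title letter as a covariate, whereas DESeq2 called 10. The median stayed between 0.67 and 0.81 with a library left out. Tgtp2, an immunity-related GTPase, was at 10.3, 10.1, 11.4 and 11.7 CPM against 4.46, 4.72, 4.89 and 4.06 CPM in carbon_treated. The photon_treated libraries had 13.4, 4.55, 7.65 and 8.53 CPM against 2.28, 4.47, 2.32 and 2.34 CPM, where photon_treated 5 and 2 again nearly met. The log2 change was 1.40 ± 0.20 (edgeR adjusted p = 0.0109).

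Gbp3, a guanylate-binding protein, was at 14.1, 15.8, 12.2 and 16.2 CPM against 4.49, 8.30, 8.92 and 7.999 CPM in carbon_treated, and at 20.3, 6.96, 12.6 and 14.5 CPM against 5.17, 7.13, 4.07 and 4.89 CPM in photon_treated. Its log2 change was 1.15 ± 0.20 (edgeR adjusted p = 0.0304). Only photon_treated 5 of the high set lay inside the low range. Igtp, also called Irgm3, changed by 0.97 ± 0.17 and its neighbour Irgm2 by 0.78 ± 0.15. Gbp6 changed by 1.14 ± 0.21 and Gvin1, a very large interferon-inducible GTPase, by 0.91 ± 0.17. Gbp6 and Gvin1 each overlap another annotated gene on their own strand.

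Of 20 tested chemokine genes, 1 passed and 17 were positive, with a median log2 change of 0.46. None passed by edgeR without carbon_treated 1, 2, 7 or 8 or photon_treated 1, 4, 6 or 8, and 2 passed without photon_treated 5. Cxcl10, which draws activated T cells and NK cells through Cxcr3, had the largest change among the genes that passed with a mean log2 CPM of at least 2, at 1.93 ± 0.32 (edgeR adjusted p = 0.0252). It was at 11.8, 8.59, 7.88 and 16.3 CPM against 3.74, 2.94, 4.58 and 1.94 CPM in carbon_treated, and at 15.9, 3.01, 7.52 and 9.77 CPM against 1.204, 3.28, 2.57 and 1.14 CPM in photon_treated. All but photon_treated 5 of the high set exceeded every low library, and the 16 untreated tumours ran from 0.896 to 3.21 CPM. Cxcl9, a Cxcr3 ligand induced mainly by interferon-gamma, had a change of 1.97 ± 0.41 that did not pass (edgeR adjusted p = 0.0890) but did in 5 of 27 alternatives, among them without photon_treated 5 (edgeR adjusted p = 0.0373). Ccl5 had a change of 0.67 ± 0.22 (edgeR adjusted p = 0.445).

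**Figure D2:**
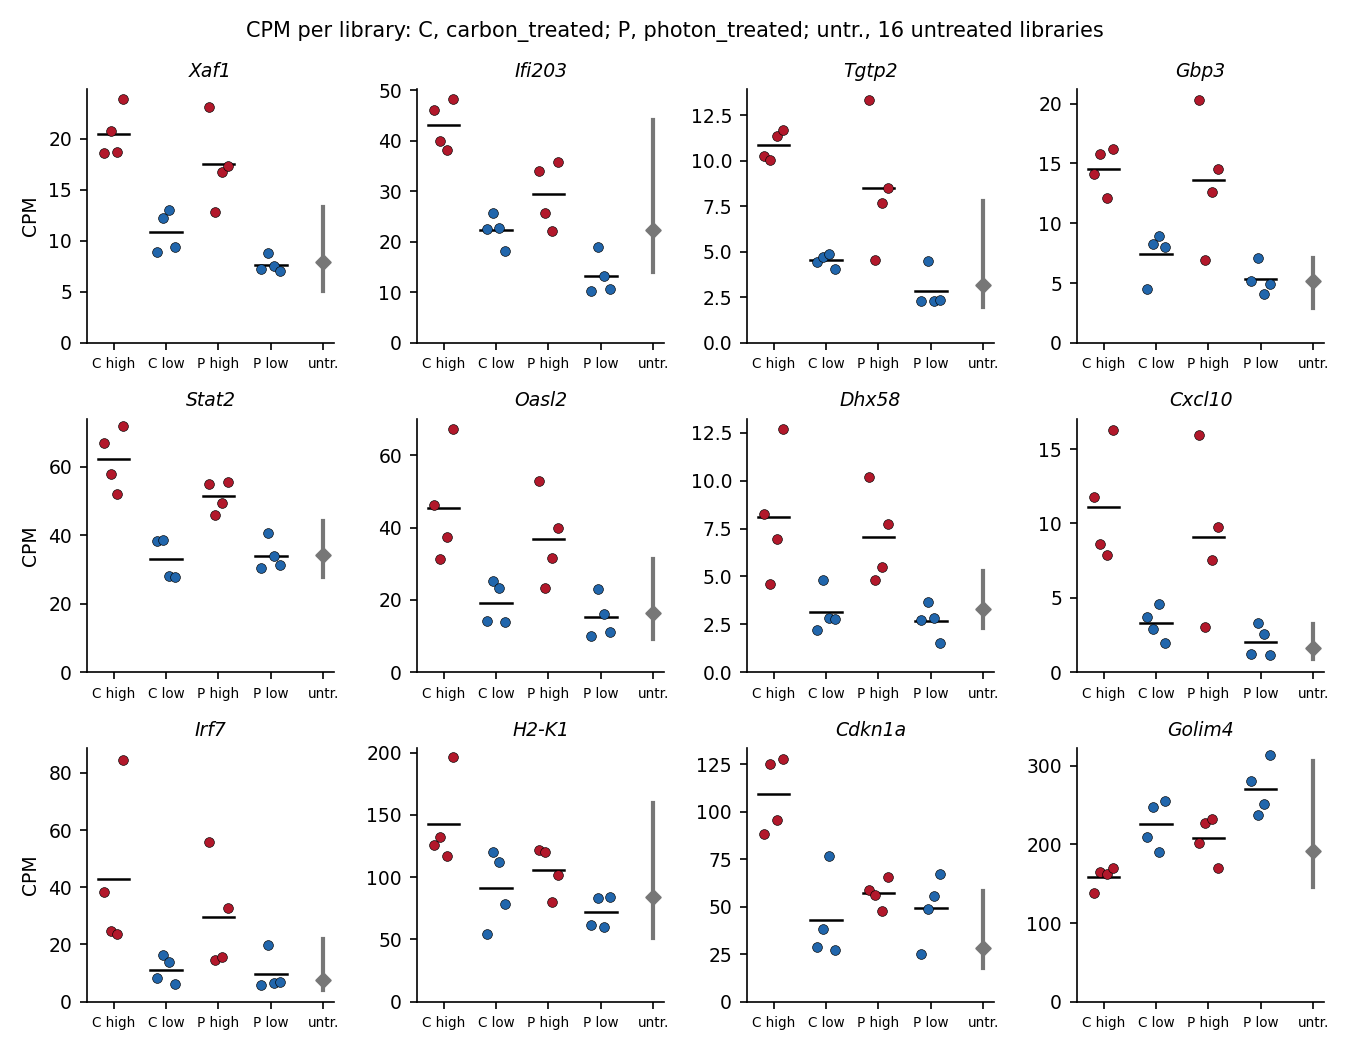
CPM of 12 genes in each irradiated library (points; red high set, blue low set; black line, mean of 4 libraries; C, carbon_treated; P, photon_treated), with the untreated libraries as median (diamond) and range (bar). Stat2 does not overlap between sets, Gbp3 overlaps through 1 photon library at 6.96 CPM, Cxcl10 overlaps through 1 photon library at 3.01 CPM, Cdkn1a is set apart in carbon_treated and mixed in photon_treated, and Golim4 is lower in the high set.

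Whether genes of antigen presentation passed depended on how the score entered the fit. In the MHC class I list 0 of 23 tested genes passed between the sets by edgeR (1 with DESeq2), 18 were positive, 11 of them with an unadjusted p under 0.05, and the median log2 change was 0.37. The median was 0.19 within carbon_treated, 0.42 within photon_treated and 0.20 without the top-scoring library of each beam. With the score as a number in place of the sets, edgeR called 8 of the 23, H2-K1 and Tap1 among them. H2-K1, a classical class I heavy chain, ran from 80.5 to 197 CPM in the high set and from 54.2 to 120 CPM in the low set, a change of 0.58 ± 0.16 (edgeR adjusted p = 0.283). B2m had a change of 0.44 ± 0.16 (edgeR adjusted p = 0.515) and the peptide transporter Tap1 of 0.82 ± 0.25 (edgeR adjusted p = 0.368). Of the 10 tested MHC class II genes 0 passed by edgeR or DESeq2 and 1 had an unadjusted p under 0.05, with a median of 0.01, and H2-Aa had a change of -0.11 ± 0.16 (edgeR adjusted p = 0.836). The class II median differed in sign by beam: within photon_treated all 10 genes had a positive change (median 0.28), and within carbon_treated 3 of 10 (median -0.21). The difference between the beams passed for 0 of the 10 by edgeR and had an unadjusted p under 0.05 for 2. Cd274, which encodes the checkpoint ligand PD-L1, was at 8.98 to 21.9 CPM in the high set and 6.85 to 12.7 CPM in the low set, with a change of 0.51 ± 0.18 (edgeR adjusted p = 0.490).

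Of the 25 genes, 7 were outside the lists. Ifi203 and Ifi207 belong to the interferon-inducible HIN-200 family of DNA-binding proteins, and Trim34a is a tripartite-motif protein. Ifi203 was at 45.98, 40.005, 38.2 and 48.3 CPM against 22.4, 25.7, 22.6 and 18.2 CPM in carbon_treated and at 33.99, 25.6, 22.2 and 35.8 CPM against 10.3, 18.9, 13.3 and 10.6 CPM in photon_treated, a log2 change of 1.03 ± 0.14 (edgeR adjusted p = 0.00768). Its annotated span overlaps that of Mndal, a relative on the same strand. Ifi207 changed by 0.89 ± 0.16 and Trim34a by 0.72 ± 0.13. Ptgis, prostacyclin synthase, is not known as an interferon target: it was at 3.34, 5.74, 4.87 and 11.6 CPM against 1.80, 2.94, 3.16 and 1.62 CPM in carbon_treated and at 2.72, 5.18, 2.78 and 3.10 CPM against 1.05, 0.482, 0.752 and 0.987 CPM in photon_treated. Its log2 change was 1.72 ± 0.28 (edgeR adjusted p = 0.0252).

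Golim4, a Golgi membrane protein, and D630011A20Rik, a gene without a settled name, were the 2 genes lower in the high set. Golim4 was at 138, 165, 163 and 170 CPM against 209, 247, 190 and 256 CPM in carbon_treated and at 202, 228, 232 and 170 CPM against 280, 238, 251 and 314 CPM in photon_treated. Within each beam the sets did not overlap. Its log2 change was -0.46 ± 0.09 (edgeR adjusted p = 0.0485), and it passed in only 2 of the 16 fits with a library left out. D630011A20Rik was at 0.128 to 0.562 CPM in the high set and 0.555 to 1.09 CPM in the low set, a change of -1.56 ± 0.25 (edgeR adjusted p = 0.0252). 1700025N23Rik was the last of the 7, at 0.294 to 0.719 CPM against 0.104 to 0.231 CPM.

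The size of the difference was then taken within each beam. In carbon_treated 17 genes passed (0.0831%), 13 higher and 4 lower, and 4447 had an unadjusted p under 0.05 by edgeR (21.7%). In photon_treated 0 genes passed (0%), 616 had an unadjusted p under 0.05, and the smallest edgeR adjusted p was 0.157, of Xaf1, while DESeq2 called 25. The difference between the beams' effects was called for 0 genes (0%) by edgeR, with 2581 at an unadjusted p under 0.05, and for 51 by DESeq2. The carbon count moved with which library was left out: 3637 genes passed without carbon_treated 3, and 0 without any one of carbon_treated 1, 2, 4, 6, 7 and 8 or photon_treated 5.

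The estimates of the beams were nearer for some of the 25 genes than for others. Dhx58 had a log2 change of 1.35 ± 0.35 in carbon_treated and 1.36 ± 0.35 in photon_treated, and Oasl2 of 1.24 ± 0.32 and 1.26 ± 0.32. D630011A20Rik was farthest apart, with -2.10 ± 0.33 in carbon_treated and -1.11 ± 0.31 in photon_treated (difference -0.99 ± 0.45, edgeR adjusted p = 0.394). Cmpk2 had 2.32 ± 0.43 and 1.53 ± 0.44 (difference 0.79 ± 0.60, edgeR adjusted p = 0.531). Next were Ptgis, with 1.41 ± 0.38 and 2.05 ± 0.41 (difference -0.64 ± 0.54, edgeR adjusted p = 0.577), and Irgm2, with 0.46 ± 0.18 and 1.10 ± 0.18 (difference -0.64 ± 0.25, edgeR adjusted p = 0.382). A difference that did not pass does not show that the beams acted alike on a gene. Stat2 and D630011A20Rik were called within carbon_treated as well as over both beams.

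**Figure D3:**
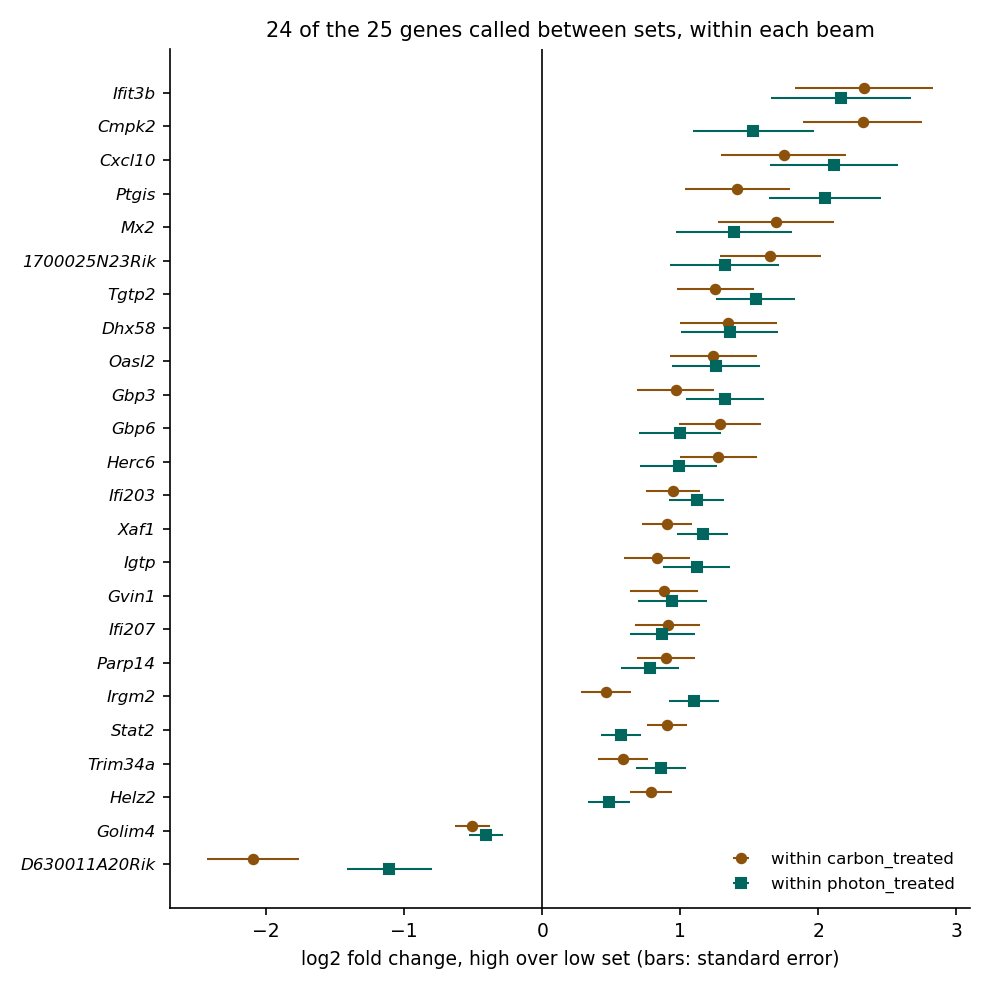
Log2 fold change, high over low set, of 24 of the 25 called genes within carbon_treated (circles) and within photon_treated (squares), with standard errors as bars. D630011A20Rik and Golim4 are the 2 to the left of 0, and D630011A20Rik has the widest gap between the beams (-2.10 against -1.11).

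The genes with the smallest p for a difference between the beams were not interferon genes. Mgp, matrix Gla protein, an inhibitor of calcification, was at 16.2, 15.002, 16.9 and 31.0 CPM in the high set of carbon_treated against 47.3, 26.99, 20.1 and 73.3 CPM in the low set. In photon_treated it was at 80.1, 44.8, 14.6 and 80.2 CPM against 10.3, 6.49, 3.26 and 11.2 CPM, so that the sets stood in the opposite order. The difference of the log2 changes was -3.87 ± 0.70 and did not pass (edgeR adjusted p = 0.382). Pitpnm1, a phosphatidylinositol transfer protein, was at 112, 130, 127 and 132 CPM against 88.1, 85.1, 83.0 and 77.5 CPM in carbon_treated (log2 change 0.58 ± 0.09, edgeR adjusted p = 0.0360 within the beam) and changed by -0.09 ± 0.09 in photon_treated. Lmtk3, a membrane kinase, and Pepd, prolidase, followed with differences of 1.60 ± 0.36 and -0.73 ± 0.16 (both edgeR adjusted p = 0.382).

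Untreated tumours gave a look at the same genes in 16 libraries that the rule did not use. There the score entered as a number with the control group as a block, and the slope is the change in log2 expression per unit of score. Of 20468 genes, 234 followed the score (1.14%), all 234 upward. Of the 23 genes higher in the irradiated high set, 22 had a positive slope, the exception being 1700025N23Rik, and 8 passed (34.8% of the 23, 3.42% of the 234). Over all genes tested, 46.4% had a positive slope. The 8 were Ifi203, Tgtp2, Ptgis, Cxcl10, Oasl2, Gbp6, Ifi207 and Gvin1. Oasl2 had a slope of 0.72 ± 0.13 (edgeR adjusted p = 0.0118), Cxcl10 of 0.78 ± 0.17 (edgeR adjusted p = 0.0356) and Ptgis of 1.33 ± 0.24 (edgeR adjusted p = 0.0109). Stat2 had a slope of 0.18 ± 0.10 (edgeR adjusted p = 0.669), not past the threshold. Of the 2 genes lower in the high set, Golim4 had a slope of -0.00 ± 0.14 (edgeR adjusted p = 1) and D630011A20Rik of 0.26 ± 0.51 (edgeR adjusted p = 1), opposite in sign to its irradiated change.

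Marker lists of other cell types were set beside the slopes in untreated tumours, where 8.70% of all genes tested had an unadjusted p under 0.05. Of 11 tested endothelial genes 4 passed and all 11 had a positive slope (median 0.52). Of 15 fibroblast and matrix genes 1 passed, and 11 had a positive slope with an unadjusted p under 0.05 (median 0.45). Among 19 macrophage and monocyte genes 0 passed by edgeR, 13 had an unadjusted p under 0.05, all upward, and the median was 0.32. Of 7 adipocyte genes 1 passed and all 7 had a positive slope, with a median of 4.93. None of the 12 tested epithelial genes had a positive slope (median -0.28). The part of the endothelial, fibroblast, macrophage and epithelial lists in the slopes was not tested.

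These calls rested on few libraries. Without carbon_ctrl 5, whose score was 2.64, 11 genes passed, and without photon_ctrl 3, whose score was 2.97, 13 passed and 0 of the 23 were among them. Without both of them 0 genes passed by edgeR and 627 had an unadjusted p under 0.05. With the mean of an adipocyte marker list as a further term 0 passed by edgeR and 778 had an unadjusted p under 0.05. With all 16 libraries DESeq2 called 432. The count of 8 among the 23 became 2 without carbon_ctrl 5, and 5 without carbon_ctrl 8 or photon_ctrl 4. It became 4 with M-titled libraries alone, 13 with limma-voom and 16 with DESeq2. In carbon_ctrl 5 the adipocyte list summed to 312 CPM, the highest of the 16 untreated libraries, whose median was 10.1 CPM. The number of the 23 with a positive slope was 22 in each of these settings except without photon_ctrl 3, where it was 23.

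Iigp1, an immunity-related GTPase, had the smallest p in untreated tumours, with a slope of 1.74 ± 0.18 (edgeR adjusted p = 0.000493). Between the irradiated sets it changed by 1.48 ± 0.41, which did not pass (edgeR adjusted p = 0.306). In the low set carbon_treated 3 and photon_treated 2 were at 9.92 and 6.97 CPM, inside the high range of 6.09 to 24.5 CPM. Slfn5, an interferon-inducible Schlafen protein, had a slope of 1.24 ± 0.14 (edgeR adjusted p = 0.000600), and Irf7 of 1.11 ± 0.15 (edgeR adjusted p = 0.00370). The others with the smallest p were Sned1, an extracellular matrix protein, and Htra3, a secreted protease, with slopes of 1.99 ± 0.22 (edgeR adjusted p = 0.000600) and 1.17 ± 0.16 (edgeR adjusted p = 0.00313).

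**Figure D4:**
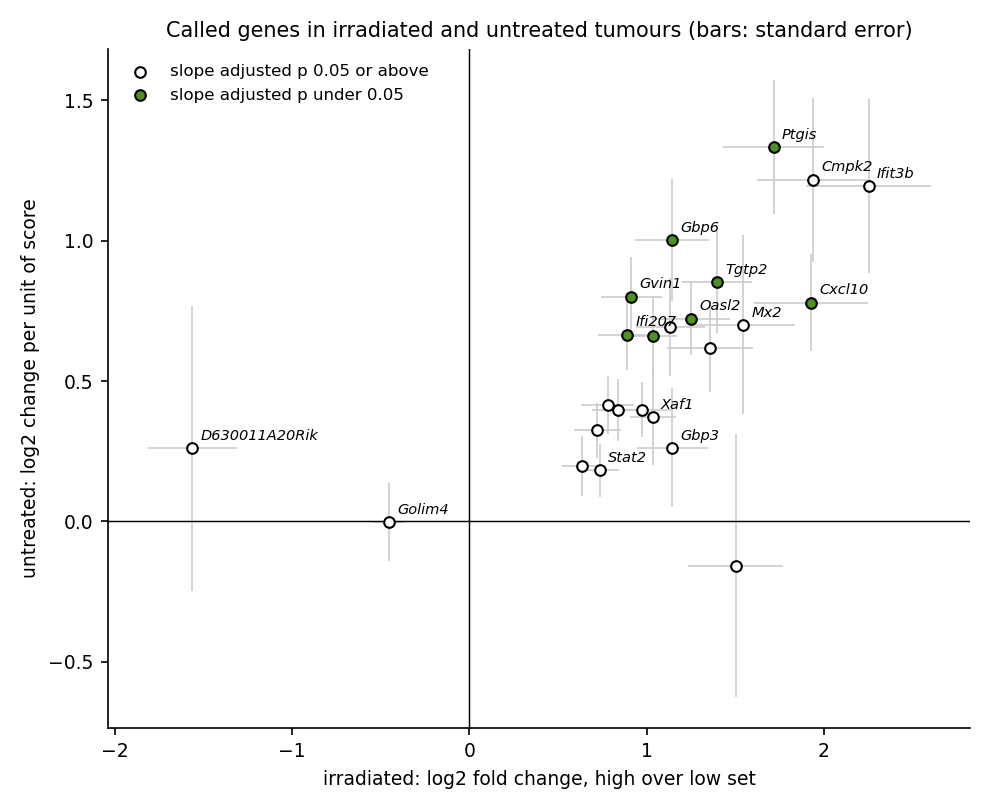
For 24 of the 25 called genes, the log2 fold change of the irradiated high over low set (horizontal) and the log2 change per unit of score over the 16 untreated libraries (vertical), with standard errors as bars; filled points passed in untreated tumours. Of the 22 drawn genes to the right of 0, 21 lie above 0 on the vertical axis and 8 are filled.

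Gene lists of immune cells were set beside the interferon genes, because immune cells both make and answer interferon. In these bulk libraries fewer cells of a type and less RNA per cell cannot be told apart. Of 19 macrophage and monocyte markers 0 passed by edgeR (1 with DESeq2, and 4 by edgeR with the score as a number) and 16 were positive, 8 of them with an unadjusted p under 0.05, with a median log2 change of 0.39 (0.14 within carbon_treated and 0.64 within photon_treated). Their sum ran from 1443 to 1858 CPM in the photon_treated high set and from 793 to 1271 CPM in the low set, without overlap. In carbon_treated the sums overlapped, at 1766 to 2780 CPM and 1810 to 2558 CPM. The marker with the smallest p was Mertk, a receptor for engulfing dead cells, with a log2 change of 0.53 ± 0.13 (edgeR adjusted p = 0.222). The part of these markers in the interferon difference was not tested.

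Lymphocyte markers were sparse and did not pass. Of 18 tested T cell genes, 0 passed and 16 were positive (median 0.21; 0.64 within carbon_treated and 0.01 within photon_treated), 0 with an unadjusted p under 0.05, and the list summed to between 12.3 and 28.3 CPM over the irradiated libraries. Cd8a, which marks cytotoxic T cells, was at 0.116 to 0.883 CPM in the irradiated libraries, with a change of 0.29 ± 0.38 (edgeR adjusted p = 0.808). Gzmb, granzyme B, was at 0.565 to 4.41 CPM in the high set and 0.814 to 2.39 CPM in the low set, a change of 0.23 ± 0.36 (edgeR adjusted p = 0.840). Of 10 tested dendritic cell genes 0 passed, 2 had an unadjusted p under 0.05 and 9 were positive (median 0.32). Of 9 neutrophil genes 0 passed, 0 had an unadjusted p under 0.05 and 6 were positive (median 0.02). Cytotoxic and NK cell genes (9 tested) had a median of 0.23 with 2 at an unadjusted p under 0.05, and B and plasma cell genes (3 tested) of -0.06 with 0. The B and plasma cell median differed in sign by beam, at -0.73 within carbon_treated and 0.63 within photon_treated. By edgeR the beam difference had an unadjusted p under 0.05 for 3 of these genes and passed for 0. Their list summed to at most 4.76 CPM in the high set and 6.44 CPM in the low set. Fibroblast, endothelial and epithelial lists had medians of 0.14, 0.05 and -0.14, and 1 epithelial gene had an unadjusted p under 0.05. These medians were -0.05, -0.15 and -0.36 within carbon_treated and 0.15, 0.29 and 0.01 within photon_treated. Of 11 endothelial genes, 2 were positive within carbon_treated and 11 within photon_treated. The small lists of adipocyte, skin keratinocyte and erythroid markers, with 7, 5 and 3 tested genes, had medians of 1.08, -0.23 and 0.87. Within carbon_treated these were 1.68, -0.31 and -0.03, and within photon_treated 0.52, -0.15 and 2.16. Of the erythroid genes, 2 had an unadjusted p under 0.05 by edgeR within photon_treated. The adipocyte median turned to -0.27 with limma-voom and to -0.06 without the top-scoring library of each beam. In none of these lists did edgeR or DESeq2 call a gene.

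Skeletal muscle, a tissue that can be taken along with a tumour, had the lowest median of the lists. All 16 of its tested genes had a negative change, with a median log2 change of -1.45 and 0 past the threshold or at an unadjusted p under 0.05 by edgeR; DESeq2 called 0 as well. The median moved with the setting: it was -0.67 with limma-voom, -0.56 for the 3 highest against the 3 lowest of 8, -0.30 per unit of score and -2.65 without the top-scoring library of each beam. The list summed to between 22.9 and 1799 CPM in the high set and between 18.3 and 9071 CPM in the low set, where carbon_treated 3 was the highest. With the mean of this list as a further term, 31 genes passed in the place of 25, and 24 were the same.

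**Figure D5:**
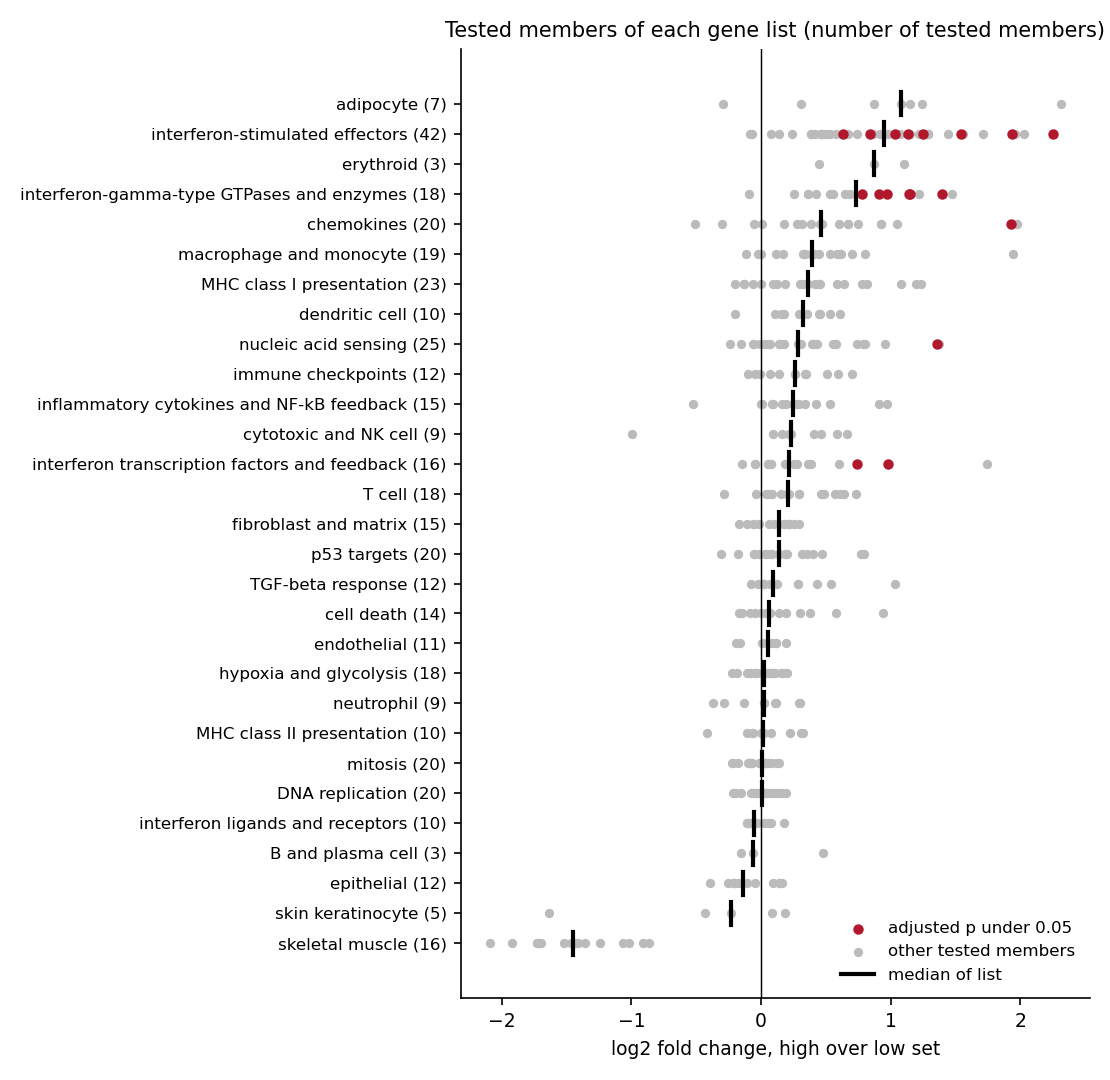
Log2 fold change, high over low set, of the tested members of each gene list with at least 3 of them (points; red, edgeR adjusted p under 0.05; black bar, median of the list; the number tested in brackets), ordered by median. Red points occur in lists of interferon genes and chemokines and, as 1 point for Dhx58, in that of nucleic acid sensing, and the skeletal muscle list lies lowest at a median of -1.45.

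Radiation damages DNA and thereby activates p53, which can arrest the cell cycle. Of 20 tested p53 targets 0 passed between the sets by edgeR or DESeq2 and 15 were positive, 7 of them with an unadjusted p under 0.05 (median 0.14). The most that passed under another setting, with single left-out libraries and the muscle term not counted, was 1. Cdkn1a, which encodes the cell cycle inhibitor p21, was at 88.4, 125, 95.4 and 128 CPM in the carbon_treated high set and at 28.9, 38.4, 76.4 and 27.4 CPM in the low set, without overlap. In photon_treated it was at 58.8, 56.3, 47.5 and 65.5 CPM against 24.96, 48.8, 55.3 and 67.4 CPM, which overlapped. The log2 change was 1.34 ± 0.32 in carbon_treated (edgeR adjusted p = 0.0896) and 0.19 ± 0.31 in photon_treated, and the difference between the beams of 1.15 ± 0.44 did not pass (edgeR adjusted p = 0.382). The untreated median was 28.5 CPM.

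Mitosis genes had a median of 0.01 with 0 of 20 passing. Mki67, the proliferation marker, was at 97.3 to 209 CPM in the high set and 68.1 to 233 CPM in the low set, a change of -0.22 ± 0.20 (edgeR adjusted p = 0.739). DNA replication genes (20 tested) had a median of 0.01 and hypoxia and glycolysis genes (18 tested) of 0.02. In these 3 lists edgeR and DESeq2 called 0 genes and 0 had an unadjusted p under 0.05. The medians changed sign between settings, from -0.21 to 0.17 for mitosis, -0.14 to 0.12 for DNA replication and -0.43 to 0.18 for hypoxia and glycolysis, where -0.43 came from the 3 highest against the 3 lowest of 8. Among all 30 lists, 10 had a median that changed sign under at least 1 alternative. Fits with a single library left out and the skeletal muscle term were not part of that count. Inflammatory cytokines with feedback genes of NF-kB (15 tested), immune checkpoints (12 tested) and cell death genes (14 tested) had medians of 0.25, 0.26 and 0.06. By edgeR 0 passed between the sets, 4, 3 and 3 had an unadjusted p under 0.05, and DESeq2 called 1, 0 and 0. The most called under another setting, with single left-out libraries and the muscle term not counted, was 2, 1 and 1. The cytokine median was 0.43 within carbon_treated and 0.03 within photon_treated, and 0.084 with M-titled libraries alone. That of the checkpoints was 0.73, 0.04 and 0.123. TGF-beta response genes (12 tested) had a median of 0.09, with 0 passing by edgeR, 3 at an unadjusted p under 0.05 and 1 called by DESeq2. Among them Ltbp2, of the family of latent TGF-beta binding proteins, had the smallest p, with a log2 change of 1.03 ± 0.28 (edgeR adjusted p = 0.287).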

How the data were processed

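Bulk RNA sequencing of 32 KPC36 tumours, 8 in each of 4 treatment groups, was used. Per the labels, RNA was kept in RNAlater and libraries were made with an Illumina stranded mRNA kit. The authors deposited 1 table of estimated counts per gene symbol for all libraries, with 55103 rows. The submitters' processing notes name FastQC 0.12.0, Trimmomatic 0.32, RSEM 1.3.3 and the build mm10, with no role or order. Annotation and strand setting are not given in the sources used here. The design of the tests assumed whole counts; the estimated counts were rounded, which changed a library total by at most 0.00403%.

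The rounded counts went into edgeR 4.0.16 under R 4.3.3 (filterByExpr with the 4 groups over 32 libraries and a minimum count of 10, TMM scaling, glmQLFit and glmQLFTest). Of 20474 genes kept, the 6 score genes were left out. P-values were adjusted by Benjamini-Hochberg over 20468 genes, threshold 0.05. The fits were 8 high against 8 low libraries with the beam as a block, the same contrast within each beam and its difference between beams from 1 model with 4 means, and the slope on the score over 16 untreated libraries. Standard errors were derived from the F statistic. The fits were tested on simulated data. Alternatives were upper-quartile scaling, no filter, limma-voom (limma 3.58.1), DESeq2 1.42.0, other splits of the score, covariates and left-out libraries.

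The genes of the score, the 30 gene lists (476 genes, 433 tested) and the tests were chosen with earlier results of these data known. Named were, at a mean log2 CPM of at least 2, the 10 highest and 10 lowest changes among genes that passed, fixed pathway genes, up to 4 genes with the smallest p in each list, and 4 with the smallest p in the beam difference and in the untreated fit. The other genes among the 25 that passed, and Bst2, Rtp4, Iigp1 in the irradiated libraries and Irf7 in the untreated ones, were named after their values were seen. Some genes that this rule names are not reported here. Gene spans come from GENCODE on GRCm38 and promoters from RefSeq on GRCm38.p6.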

Additional observations from a re-analysis of the deposited data

Results flagged for a closer look

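In groups of 4 to 8 libraries the highest or lowest value was compared with the rest by Dixon's criterion, which chance meets in about 1 of 20 groups. For genes the criterion was applied to log2 CPM, while the values given below are CPM. Of 52 groups examined, 4 met it. Carbon_treated 7, of the low set, had a total of 71645903 estimated counts, against 22777950 to 41885717 in the other 7 libraries of its group. Photon_ctrl 3 had a score of 2.97, against 1.38 to 1.99 in the other 7 photon controls, and the fit in untreated tumours called 13 genes without it in place of 234. Gbp3 was at 4.49 CPM in carbon_treated 2, against 7.999 to 8.92 CPM in the other 3 of the low set. Tgtp2 was at 4.47 CPM in photon_treated 2, against 2.28 to 2.34 CPM in the other 3 of the low set. Photon_treated 2 is also the low library whose score lay next to the boundary.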

How the results depend on the processing

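The difference of 25 genes between the sets became 0 with M-titled libraries alone (1135 at an unadjusted p under 0.05 by edgeR), 154 with DESeq2 (70.8% higher in place of 92%), 80 with the 3 highest against the 3 lowest of 8, 277 with the score as a number (79.4% higher) and 3 without both top-scoring irradiated libraries, chosen after seeing the data. It ran from 4 to 32 with each library left out: 6, 4, 13, 4 and 4 without carbon_treated 1, 2, 4, 7 and 8, and 4, 16, 8, 5 and 5 without photon_treated 1, 3, 4, 6 and 8. Within carbon_treated the 17 became 0 with M-titled libraries alone (4270 unadjusted), 57 with limma-voom and 966 with DESeq2 (49.1% higher in place of 76.5%). Left-out libraries gave 0 to 3637 there, with 3637 without carbon_treated 3, 3 without carbon_treated 5, 11, 56, 5 and 8 without photon_treated 2, 3, 7 and 8, and 0 without carbon_treated 1, 2, 4, 6, 7 or 8 or photon_treated 5. Within photon_treated the 0 became 25 with DESeq2 and 0 to 3 with a library left out (3 without photon_treated 5). The beam difference became 51 with DESeq2 and remained 0 to 0 with a library left out. In untreated tumours the 234 became 101 with M-titled libraries alone and 432 with DESeq2. It became 0 without both top-scoring controls and 0 with the adipocyte term, both chosen after seeing the data. With a library left out it ran from 11 to 288, with 11, 13 and 134 without carbon_ctrl 5, photon_ctrl 3 and photon_ctrl 4. The cause was not tested for any of these. Among the genes that passed and the fixed pathway genes, changes of sign occurred in 4, none of which passed. Genes named only from the lists, the beam difference or the untreated fit were not followed over the alternatives. The log2 change of Cd8a was -0.077 with M-titled libraries alone and ran from -0.036 to 0.50 with a library left out. That of Gzmb was -0.16 without both top-scoring libraries and ran from -0.15 to 0.38 with a library left out. Sting1 was at -0.0017 without both top-scoring libraries, and Ifnar1 at 0.011 with upper-quartile scaling and 1.8e-05 with M-titled libraries alone. No paired analysis was possible because the labels give no replicate numbers shared between groups. Genes at low counts, such as Ifnb1 and Ifng, are limited by depth.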
